A study of Taeniopygia guttata with 2 samples.

Results

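N-methyl-D-aspartate (NMDA) receptors are the glutamate-gated, calcium-permeable channels that link synaptic input to plasticity, and in the striatum they carry part of the input from pallial neurons onto medium spiny neurons (MSNs). A typical receptor combines the obligatory GRIN1 subunit, which binds glycine or D-serine, with GRIN2 subunits, which bind glutamate and set the speed and pharmacology of the channel. In mammals GRIN2B dominates early in life, GRIN2A comes in later, and GRIN3A, a further glycine-binding subunit, lowers calcium permeability and magnesium block. The subunit genes GRIN1, GRIN2A, GRIN2B, GRIN2C and GRIN3A were followed here across the cell types of Area X, the song-related part of the zebra finch striatum. They were chosen by name from a list of 6 subunit genes, of which 5 were matched among 17430 gene columns. GRIN2D was not analysed here. The roles of subunits given here are known from mammals.

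The single-nucleus RNA-seq data comprised 2 libraries, 1 per condition, each pooled from Area X punches of 2 adult male birds of 160 to 185 days post hatch, according to the labels. The methods of the study give a later age range for the taking of tissue, which overlaps this one. Birds of the library labelled shFoxP2 carried CS-shFoxP2, an adeno-associated virus in which the CAG promoter drives mCherry together with hairpins against FoxP2 until Cre is supplied, and birds of the shScr library carried the same Cre-switch virus with a scrambled hairpin. Neither construct was paired with Cre, all birds were kept on a reversed light cycle, and tissue was taken shortly before lights-on. With 1 library each, birds, dissection, virus and library preparation cannot be told apart from the hairpin, no test over samples was possible, and every interval below covers counting error only.

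The library labelled shFoxP2 held 12956 nuclei with a median of 2871 unique molecular identifiers (UMIs), and the shScr library 14289 nuclei with a median of 2300. FOXP2 itself went against the label, with 5.85 UMIs per 10000 in MSNs of the library labelled shFoxP2 and 4.75 in MSNs of the shScr library. The study measured its knockdown as FoxP2 protein in infected cells. The counts here are nuclear RNA, intronic reads included, over all MSNs, infected or not. What lay behind the higher FOXP2 count was not tested. There were 47 cell barcodes present in both libraries. The nuclei fell into 23 clusters drawn by the authors over both libraries, and cluster names follow the study. Clusters 1 to 5 are MSNs, with the indirect-like clusters 1, 3 and 5 marked by DRD2 (2.11 to 3.74 UMIs per 10000 in the shScr library) and the direct-like clusters 2 and 4 low in it (0.196 and 0.205). Cluster 5 was mixed, with the lowest DRD2 of its 3 and 4.57 FOXP2 UMIs per 10000 in that library. Clusters 1 and 3 had 0.441 and 2.31 of FOXP2, and clusters 2 and 4 had 8.04 and 12.8. The log2 ratio of FOXP2, library labelled shFoxP2 over shScr, was 0.20 (0.0013 to 0.41) in cluster 1. It was 0.36 (0.32 to 0.41) in cluster 2 and 0.28 (0.18 to 0.38) in cluster 5. In clusters 3 (0.11, -0.040 to 0.25) and 4 (-0.021, -0.091 to 0.050) the interval included 0. The median depth of cluster 5 was 5343.5 UMIs in the library labelled shFoxP2 and 4278 in the shScr library, against 2854 and 2259 in all MSNs. It is counted as indirect-like in the pathway sums below. Marker sums set the glutamatergic (GLUT+), oligodendrocyte, microglial, endothelial and red blood cell clusters apart. Those of pallidal-like cells, astrocytes and oligodendrocyte precursors were also highest in their own clusters. The defining markers GFAP of astrocytes and CSPG4 of oligodendrocyte precursors, however, had 0 UMIs in their own clusters. The summed MSN markers of cluster 1 to 5 nuclei, by contrast, were met elsewhere. They came to 71.9 to 82.0 UMIs per 10000 in the library labelled shFoxP2 and 76.6 to 84.2 in the shScr library. Other clusters reached 80.5 and 81.0 at most. The summed markers of interneurons reached only 9.22 and 9.48 UMIs per 10000 in the lowest interneuron cluster, so interneurons are described cluster by cluster. The label of the samples names striatal projection neurons, but the punches also held glia, endothelial cells and nucleated red blood cells.

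Levels are UMIs of a gene summed over the nuclei of a cluster, per 10000 UMIs of the same nuclei. Because UMI yield depends on gene length, the level of one subunit is compared between clusters and libraries and not with the level of another subunit. The authors drew the clusters with the subunit genes in the data, so differences between clusters are a description.

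GRIN1, the subunit that every NMDA receptor needs, was highest in MSN clusters 1, 2 and 5. Cluster 1, the main indirect-like cluster, had 17.7 UMIs per 10000 (95% interval 17.39 to 17.96) in the library labelled shFoxP2 and 16.2 (15.9 to 16.5) in the shScr library. Cluster 2, the main direct-like cluster, had 16.76 in the library labelled shFoxP2 and 14.98 in the shScr library, and cluster 5 had 17.4 and 15.5. The minor MSN clusters were lower, with 13.5 in the library labelled shFoxP2 and 12.97 in the shScr library for cluster 3, and 12.2 and 10.9 for cluster 4. Interneuron clusters lay below all 5 MSN clusters in both libraries, and in the shScr library they ran from 5.06 in cluster 23, which carries the cholinergic marker CHAT, to 10.2 in cluster 21. The lowest GRIN1 level of all 23 clusters was in the astrocyte cluster 6, with 3.93 UMIs per 10000 in the library labelled shFoxP2 and 3.87 in the shScr library. GRIN1 therefore spanned a 4.50-fold range over clusters in the library labelled shFoxP2 and a 4.18-fold range in the shScr library. Of the 22 pairs of neighbours in this order, 20 had overlapping intervals in each library, and the step from cluster 3 up to cluster 2 was the 1 gap found in both.

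Nuclei of cell types that should lack NMDA receptors also carried subunit UMIs. Red blood cell cluster 11 had 13.5 GRIN1 UMIs per 10000 (12.3 to 14.7) in the library labelled shFoxP2 and 11.9 (10.8 to 13.2) in the shScr library, above every interneuron cluster and, with overlapping intervals, above MSN cluster 4. MSN cluster 3 lay inside these intervals in both libraries. The median depth of red blood cell cluster 11 was 630 UMIs in the library labelled shFoxP2 and 659 in the shScr library, against 2854 and 2259 in MSNs. Microglia of cluster 22 had 12.5 and 10.8 GRIN1 UMIs per 10000 in the same order. Levels of this size in a non-neuronal cluster are read here as background, and astrocyte cluster 6 and interneuron clusters 13, 14 and 23 lay well under it. How much of the level in any neuronal cluster came from RNA outside the nucleus was not tested.

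GRIN2A, the subunit that in mammals gives receptors faster kinetics, separated clusters more strongly than GRIN1. Interneuron cluster 17, in which the interneuron gene LHX6 was highest, held the most, with 18.3 UMIs per 10000 (17.2 to 19.5) in the library labelled shFoxP2 and 17.1 (15.9 to 18.4) in the shScr library. At the other end, CHAT-bearing cluster 23 had 1.96 and 1.34, and interneuron cluster 14 had 2.77 and 2.25. The span between the highest and the lowest cluster was 9.33-fold in the library labelled shFoxP2 and 12.8-fold in the shScr library. Its lower end, cluster 23, rests on 56 GRIN2A UMIs of 44 nuclei in the library labelled shFoxP2 (1.48 to 2.55 per 10000). In the shScr library it rests on 26 UMIs of 32 nuclei (0.877 to 1.97). Neighbours in the order had overlapping intervals in 19 of 22 pairs in each library, and cluster 17 was set apart from the next cluster in both.

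Among MSNs GRIN2A was lower in minor clusters 3 and 4 than in clusters 1, 2 and 5, in both libraries. Main clusters 1 and 2 had 9.91 and 10.1 UMIs per 10000 in the library labelled shFoxP2, and 10.6 and 11.2 in the shScr library. Minor indirect-like cluster 3 had 5.50 in the library labelled shFoxP2 and 5.89 in the shScr library. In minor direct-like cluster 4 the values were 3.81 in the library labelled shFoxP2 and 4.68 in the shScr library, so that no main and minor cluster overlapped. Cluster 5, the smallest MSN cluster with 648 nuclei in the library labelled shFoxP2 and 675 in the shScr library, is counted in neither pair and had 9.78 and 11.01 UMIs per 10000, at the level of the main clusters. Summed over the pairs, the log2 ratio of minor over main MSN clusters was -1.08 (-1.14 to -1.03) in the library labelled shFoxP2 and -1.02 (-1.08 to -0.96) in the shScr library. The same contrast within a pathway gave -0.85 for cluster 3 over cluster 1 and -1.40 for cluster 4 over cluster 2 in the library labelled shFoxP2, and -0.84 and -1.26 in the shScr library.

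GRIN2B, the subunit that binds CaMKII most tightly, did not follow this division. Its level in the 5 MSN clusters lay between 9.36 and 10.7 UMIs per 10000 in the library labelled shFoxP2 and between 9.59 and 10.9 in the shScr library. The minor over main log2 ratio was 0.11 (0.074 to 0.15) in the library labelled shFoxP2 and 0.12 (0.071 to 0.16) in the shScr library. Outside MSNs, cluster 17 was again the highest, with 18.5 and 17.8, which set it above its next neighbour, cluster 21, in both libraries. Interneuron cluster 13 had 3.41 UMIs per 10000 in the library labelled shFoxP2 and 2.63 in the shScr library, and astrocyte cluster 6 had 1.85 and 1.90. These were the lowest levels of GRIN2B, and both clusters were also apart from the next one in the order.

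GRIN3A was sparse, with 4038 UMIs in all nuclei of the library labelled shFoxP2 and 2496 in the shScr library. Interneuron cluster 14 held the highest level, 3.82 UMIs per 10000 (3.45 to 4.23) in the library labelled shFoxP2 and 3.47 (3.00 to 3.98) in the shScr library. Cluster 18 followed with 3.18 in the library labelled shFoxP2 and 3.08 in the shScr library. Interneuron cluster 13, by contrast, had 0.131 and 0.121, so interneuron clusters held both the highest levels and 1 of the lowest. Minor MSN clusters 3 and 4 had 1.37 and 1.30 in the library labelled shFoxP2 and 0.941 and 1.02 in the shScr library, above main clusters 1 and 2 at 0.862 and 0.726 in the library labelled shFoxP2 and 0.353 and 0.468 in the shScr library. The log2 ratio of minor over main MSN clusters was 0.75 (0.63 to 0.87) in the library labelled shFoxP2 and 1.25 (1.08 to 1.42) in the shScr library.

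Of the 4 subunit genes with at least 200 UMIs in the minor and main MSN clusters together, 1 passed a log2 ratio of 0.5 upward (GRIN3A) and 1 downward (GRIN2A) in each library. Over all genes with that many UMIs, 11.6% of 8430 passed this fold in the library labelled shFoxP2 (7.13% upward and 4.46% downward) and 13% of 8196 in the shScr library (7.67% upward and 5.32% downward). The median ratio of these subunit genes was -0.15 in the library labelled shFoxP2 and -0.13 in the shScr library, against -0.038 and -0.030 over all genes.

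GRIN2C, which in mammals is best known from the cerebellum, was found mostly in interneuron clusters, with 94 of 127 UMIs of the library labelled shFoxP2 and 107 of 154 UMIs of the shScr library. MSNs had 26 UMIs in the library labelled shFoxP2 and 32 in the shScr library, among 27551457 and 25248370 UMIs in all. Cluster 14 had 48 UMIs (0.483 per 10000, 0.356 to 0.640) in the library labelled shFoxP2 and 36 UMIs (0.624, 0.437 to 0.864) in the shScr library. Cluster 13 had 24 UMIs in each library, and cluster 21 had 13 in the library labelled shFoxP2 and 18 in the shScr library. Red blood cells had 0 GRIN2C UMIs in both libraries, where a count of 0 allows up to 3 UMIs. Of the 5 subunit genes followed here, GRIN2C had the fewest UMIs.

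**Figure D1:**
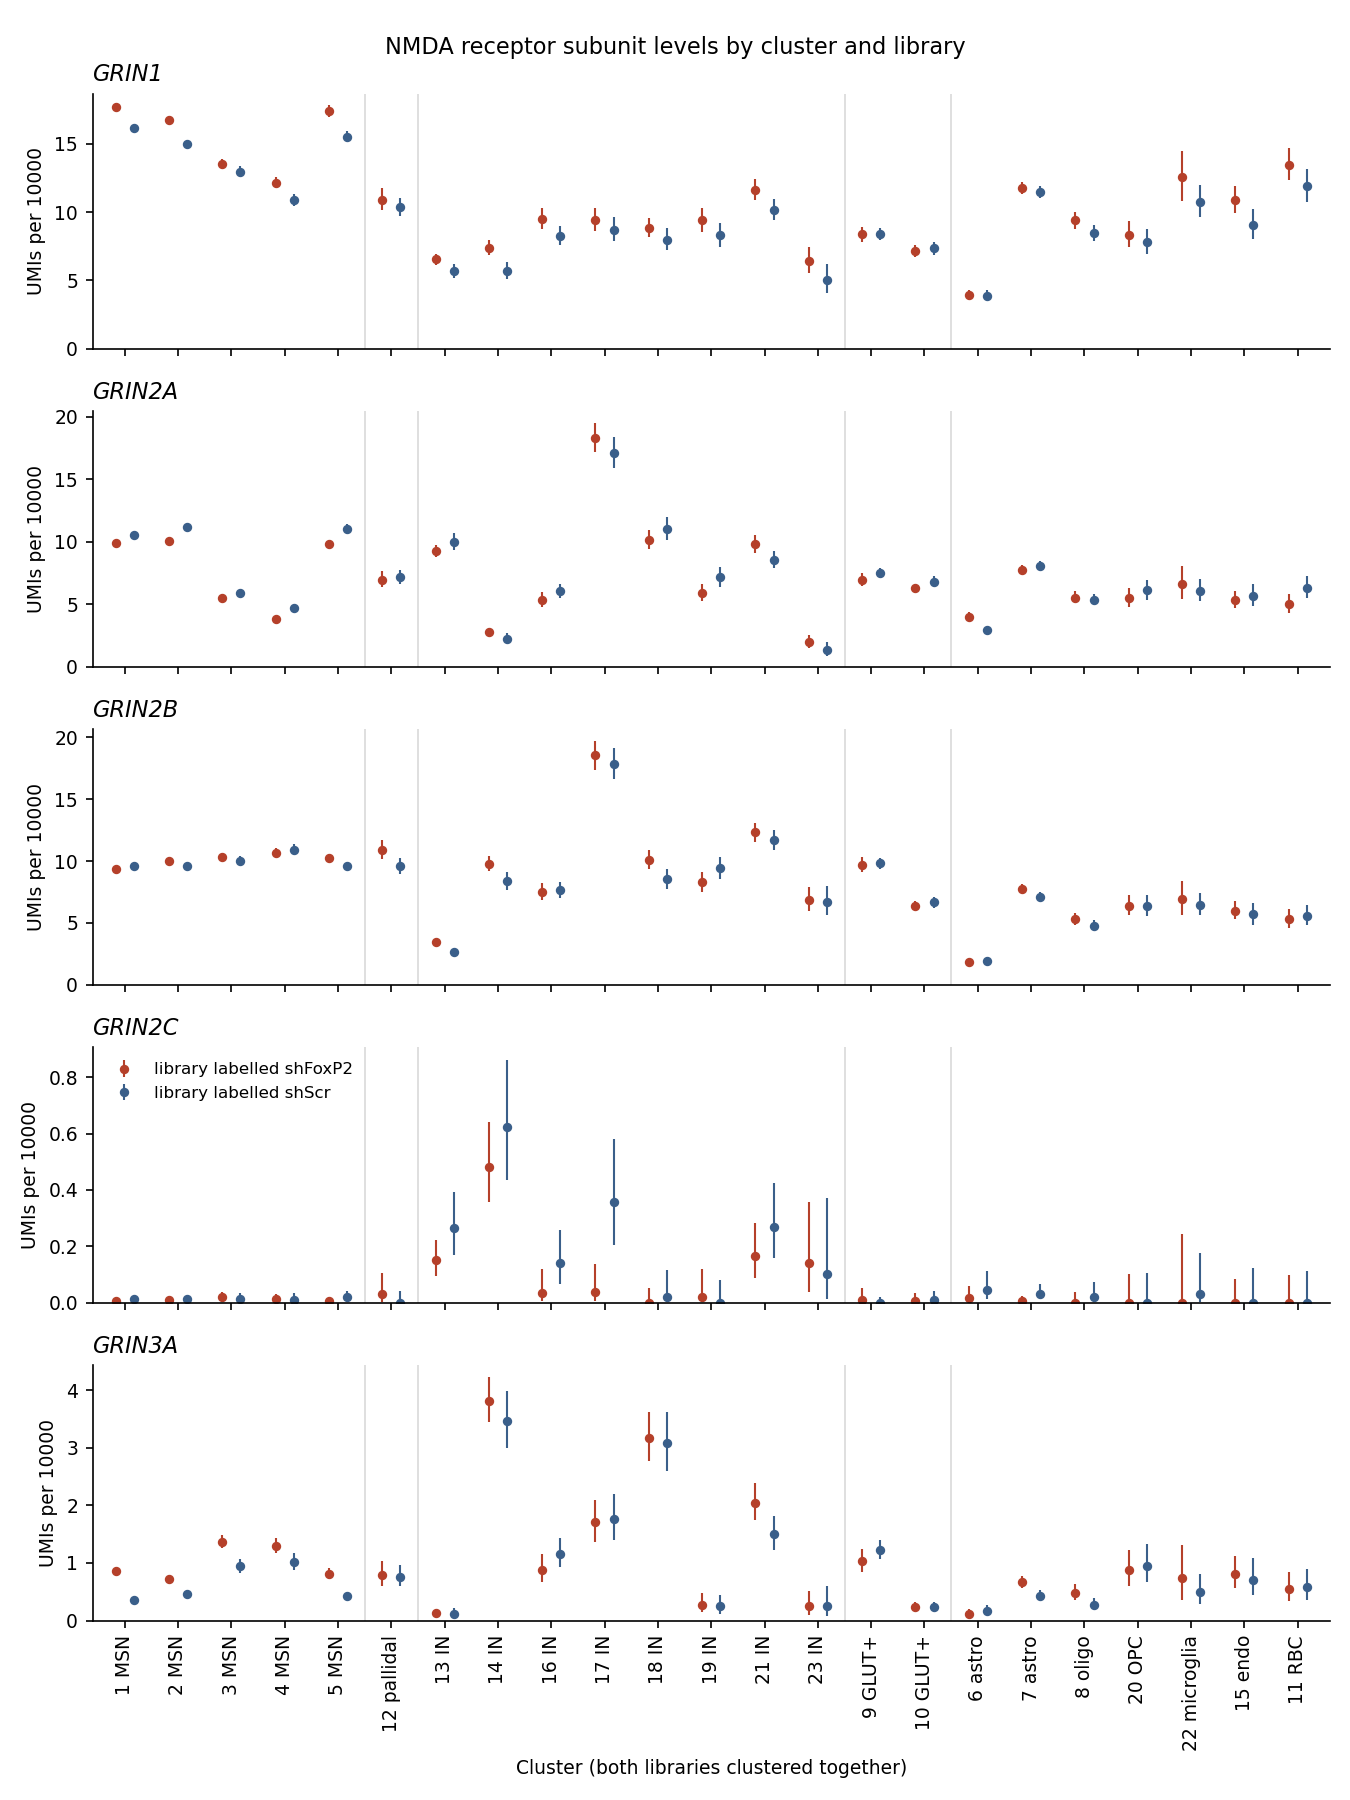
Level of each subunit gene (UMIs per 10000, linear axes that start at 0 and differ between panels) in the 23 clusters, with the library labelled shFoxP2 (red) left of the shScr library (blue). Points are summed levels and bars are 95% Poisson intervals; MSN clusters 1 to 5 stand at the left, GRIN2A is lower in clusters 3 and 4 than in 1, 2 and 5 while GRIN2B is level, and GRIN3A peaks in interneuron cluster 14 at 3.82 and 3.47 UMIs per 10000.

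The balance of GRIN2A and GRIN2B was described by the percentage of GRIN2A among the UMIs of both genes. This value carries the effect of gene length equally in every cluster, so clusters can be compared, although a share of 50% does not mean equal numbers of molecules. In main MSN clusters 1 and 2 it was 51.4% (50.7 to 52.2) and 50.1% (49.3 to 50.9) in the library labelled shFoxP2, and 52.4% (51.7 to 53.1) and 53.8% (53.1 to 54.5) in the shScr library. Cluster 3 had 34.8% (33.6 to 36.0) in the library labelled shFoxP2 and 37.0% (35.6 to 38.5) in the shScr library. The lowest share among MSNs was that of cluster 4, 26.3% (25.1 to 27.6) in the library labelled shFoxP2 and 30.0% (28.4 to 31.6) in the shScr library. Cluster 5 had 48.9% (47.7 to 50.0) in the library labelled shFoxP2 and 53.4% (52.2 to 54.6) in the shScr library. Intervals of clusters 3 and 4 were thus far from those of the other MSN clusters in both libraries.

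Interneuron clusters spread further than MSNs in both directions. Cluster 13 was the most GRIN2A-rich, with 73.1% (71.1 to 75) in the library labelled shFoxP2 and 79.1% (76.7 to 81.4) in the shScr library. Cluster 14 lay at the other end, with 22.1% (19.8 to 24.5) in the library labelled shFoxP2 and 21.2% (18.1 to 24.7) in the shScr library. The CHAT-bearing cluster 23 was also GRIN2B-rich, at 22.2% (17.2 to 27.9) in the library labelled shFoxP2 and 16.7% (11.2 to 23.5) in the shScr library. Cluster 17, which had the highest level of both genes, stood at 49.7% and 49.0%, close to the main MSNs. Clusters 13 and 14 therefore differed in balance through both genes, and in the shScr library cluster 13 had 9.99 GRIN2A and 2.63 GRIN2B UMIs per 10000 where cluster 14 had 2.25 and 8.35.

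Non-neuronal clusters stayed near the share of the whole library. It was 46.9% over all nuclei of the library labelled shFoxP2 and 49.9% in the shScr library. Oligodendrocytes, their precursors, microglia, endothelial cells and red blood cells lay between 46.2% and 51.1% in the library labelled shFoxP2 and between 48.4% and 53.1% in the shScr library. Red blood cells had 48.6% (43.6 to 53.7) in the library labelled shFoxP2 and 53.1% (48.0 to 58.1) in the shScr library. Astrocyte cluster 6 stood apart from these with 68.3% (64.8 to 71.7) in the library labelled shFoxP2 and 60.6% (55.9 to 65.2) in the shScr library.

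**Figure D2:**
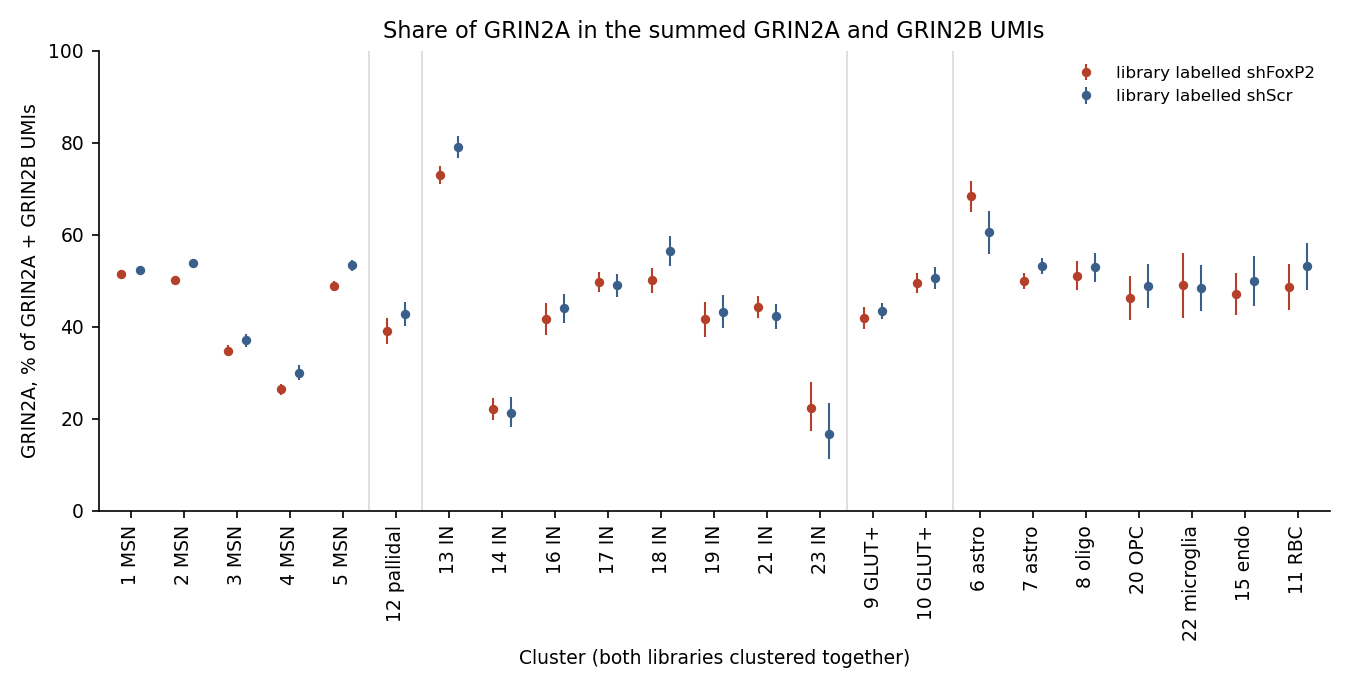
Percentage of GRIN2A in the summed GRIN2A and GRIN2B UMIs for each of the 23 clusters, with 95% Clopper-Pearson intervals, the library labelled shFoxP2 (red) left of the shScr library (blue). Minor MSN clusters 3 and 4 lie under 1, 2 and 5, cluster 13 is the highest (73.1% and 79.1%), and clusters 14 and 23 lie near 20%.

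The authors also clustered the shScr library alone, which allowed the same shares to be read from clusters that the other library did not shape. Of the nuclei of its clusters 1, 2, 4 and 5, between 92.3% and 99.0% fell in combined clusters 2, 1, 3 and 4. The GRIN2A shares were 53.8%, 52.3%, 36.2% and 30.0%. Since these are largely the same nuclei, shares like those of the combined clusters follow from the overlap. The cluster matching CHAT-bearing cluster 23 had 12.1% (7.24 to 18.7), and the one matching cluster 13 had 76.2% (73.7 to 78.6). Combined cluster 14 was matched less well, by a cluster with 70.0% of its nuclei there. That cluster had 29.6% (26.9 to 32.3), above the 21.2% (18.1 to 24.7) of combined cluster 14 in the shScr library.

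Direct-like and indirect-like MSNs, which the study contrasts for dopamine receptors, differed little in NMDA receptor subunits when all clusters of a pathway were summed. GRIN1 had 16.6 UMIs per 10000 in indirect-like and 15.4 in direct-like MSNs of the library labelled shFoxP2, a log2 ratio of 0.11 (0.079 to 0.13). In the shScr library it had 15.4 and 14.2 in the same order, a ratio of 0.12 (0.094 to 0.15). GRIN2A and GRIN2B had ratios of 0.097 and -0.060 in the library labelled shFoxP2 and -0.018 and -0.026 in the shScr library. The direction thus differed between libraries for GRIN2A, whose interval in the shScr library included 0 (-0.054 to 0.018). It also did for GRIN3A, with a ratio of 0.12 (0.0049 to 0.23) in the library labelled shFoxP2 and -0.27 (-0.43 to -0.11) in the shScr library. After thinning to 1000 UMIs the GRIN3A ratio was -0.037 in the library labelled shFoxP2 and -0.36 in the shScr library. In the unthinned pathway sums, none of the 4 subunit genes with enough UMIs passed a log2 ratio of 0.5 in either library. Of all genes, 4.63% of 8734 did so in the library labelled shFoxP2 and 5.41% of 8503 in the shScr library. Between the minor clusters alone, cluster 3 over cluster 4, 1 subunit gene passed it in the library labelled shFoxP2. This was GRIN2A, with 5.50 UMIs per 10000 in cluster 3 and 3.81 in cluster 4. In the shScr library GRIN2A had 5.89 and 4.68 in the same order, and no subunit gene passed.

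Main clusters 1 and 2 were also compared without the others. GRIN1 was higher in cluster 1 by 0.076 (0.043 to 0.11) on the log2 scale in the library labelled shFoxP2 and by 0.11 (0.077 to 0.15) in the shScr library. For GRIN2A the ratio of cluster 1 over cluster 2 was -0.022 (-0.066 to 0.022) in the library labelled shFoxP2 and -0.083 (-0.12 to -0.041) in the shScr library, so that in the library labelled shFoxP2 it did not share the direction of the ratio over all MSN clusters. GRIN3A was higher in cluster 1 in the library labelled shFoxP2 (0.25, 0.09 to 0.41) and lower there in the shScr library (-0.41, -0.63 to -0.19).

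The central comparison of the study, knockdown against scrambled hairpin, was next made for each subunit gene in MSNs. GRIN1 had 16.1 UMIs per 10000 in MSNs of the library labelled shFoxP2 and 14.9 in MSNs of the shScr library, a log2 ratio of 0.11 (0.092 to 0.13). GRIN2A had 8.59 in the library labelled shFoxP2 and 9.85 in the shScr library (-0.20, -0.22 to -0.17), and GRIN2B had 9.97 and 9.75 (0.032, 0.0071 to 0.057). GRIN3A had 0.938 in the library labelled shFoxP2 and 0.518 in the shScr library, a log2 ratio of 0.86 (0.76 to 0.96). These are small shifts for the 3 abundant subunits and a clear one in counts for the rare GRIN3A (2585 and 1307 UMIs).

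Of the 4 subunit genes with at least 200 MSN UMIs over both libraries, 1 passed a log2 ratio of 0.5, GRIN3A, and none passed -0.5. At a log2 ratio of 1 or more in either direction 0 subunit genes passed, where 4.71% of all genes did. Among all 10125 genes with that many UMIs, 18.2% passed 0.5 in either direction, 9.11% upward and 9.1% downward. The ratio of GRIN3A was higher than that of 96.6% of these genes, that of GRIN1 higher than 63.5%, of GRIN2B higher than 53.3% and of GRIN2A higher than 27.0%. The 5th and 95th percentiles over all genes were -0.68 and 0.71. No 2 pools of birds with the same hairpin could be compared, so the size of difference between pools of birds alone is unknown.

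The direction of each ratio was alike across MSN clusters for GRIN1, GRIN2A and GRIN3A. GRIN1 was higher in the library labelled shFoxP2 in 5 of 5 clusters, with ratios of 0.059 to 0.16 and 4 intervals above 0. It was also higher in 8 of 8 interneuron clusters, at 0.11 to 0.37, and in 21 of all 23 clusters, red blood cells, microglia and endothelial cells included, with 10 of the 23 intervals above 0. GRIN2A was lower in 5 of 5 MSN clusters, from -0.29 in cluster 4 to -0.091 in cluster 1, with 5 intervals below 0. GRIN2B was higher in 3 and lower in 2, between -0.035 and 0.090.

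The GRIN2A difference was set beside the pathway of the MSNs. Direct-like MSNs had 8.25 UMIs per 10000 in the library labelled shFoxP2 and 9.92 in the shScr library, a log2 ratio of -0.27 (-0.31 to -0.23). Indirect-like MSNs had 8.83 in the library labelled shFoxP2 and 9.79 in the shScr library, a ratio of -0.15 (-0.18 to -0.12). The ratios differed by 0.12 (0.063 to 0.17), and those of main clusters 1 and 2 alone by 0.061 (0.00033 to 0.12). Minor clusters made up 2131 of 8393 MSNs in the library labelled shFoxP2 and 1643 of 9657 in the shScr library, and they hold less GRIN2A in both. Within the main clusters the ratio was -0.12 (-0.15 to -0.091) and within the minor ones -0.19 (-0.26 to -0.11). The 8 interneuron clusters summed had a GRIN2A ratio of -0.029 (-0.091 to 0.033), with 4 clusters higher and 4 lower. GLUT+ neurons had a ratio of -0.14 (-0.23 to -0.054) and red blood cells one of -0.33 (-0.62 to -0.037). Within GLUT+ clusters 9 and 10 it was -0.11 (-0.24 to 0.020) and -0.12 (-0.25 to 0.0084). Over all 23 clusters GRIN2A was lower in 16 and higher in 7, with 7 intervals below 0 and 2 above. Outside MSNs the intervals below 0 were those of interneuron cluster 19 (-0.28, -0.52 to -0.044) and of red blood cells, whose GRIN1 level is read above as background. Those above 0 were of astrocyte cluster 6 (0.45, 0.23 to 0.67) and interneuron cluster 21 (0.19, 0.035 to 0.35). Whether the lower GRIN2A level was particular to MSNs was not tested.

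**Figure D3:**
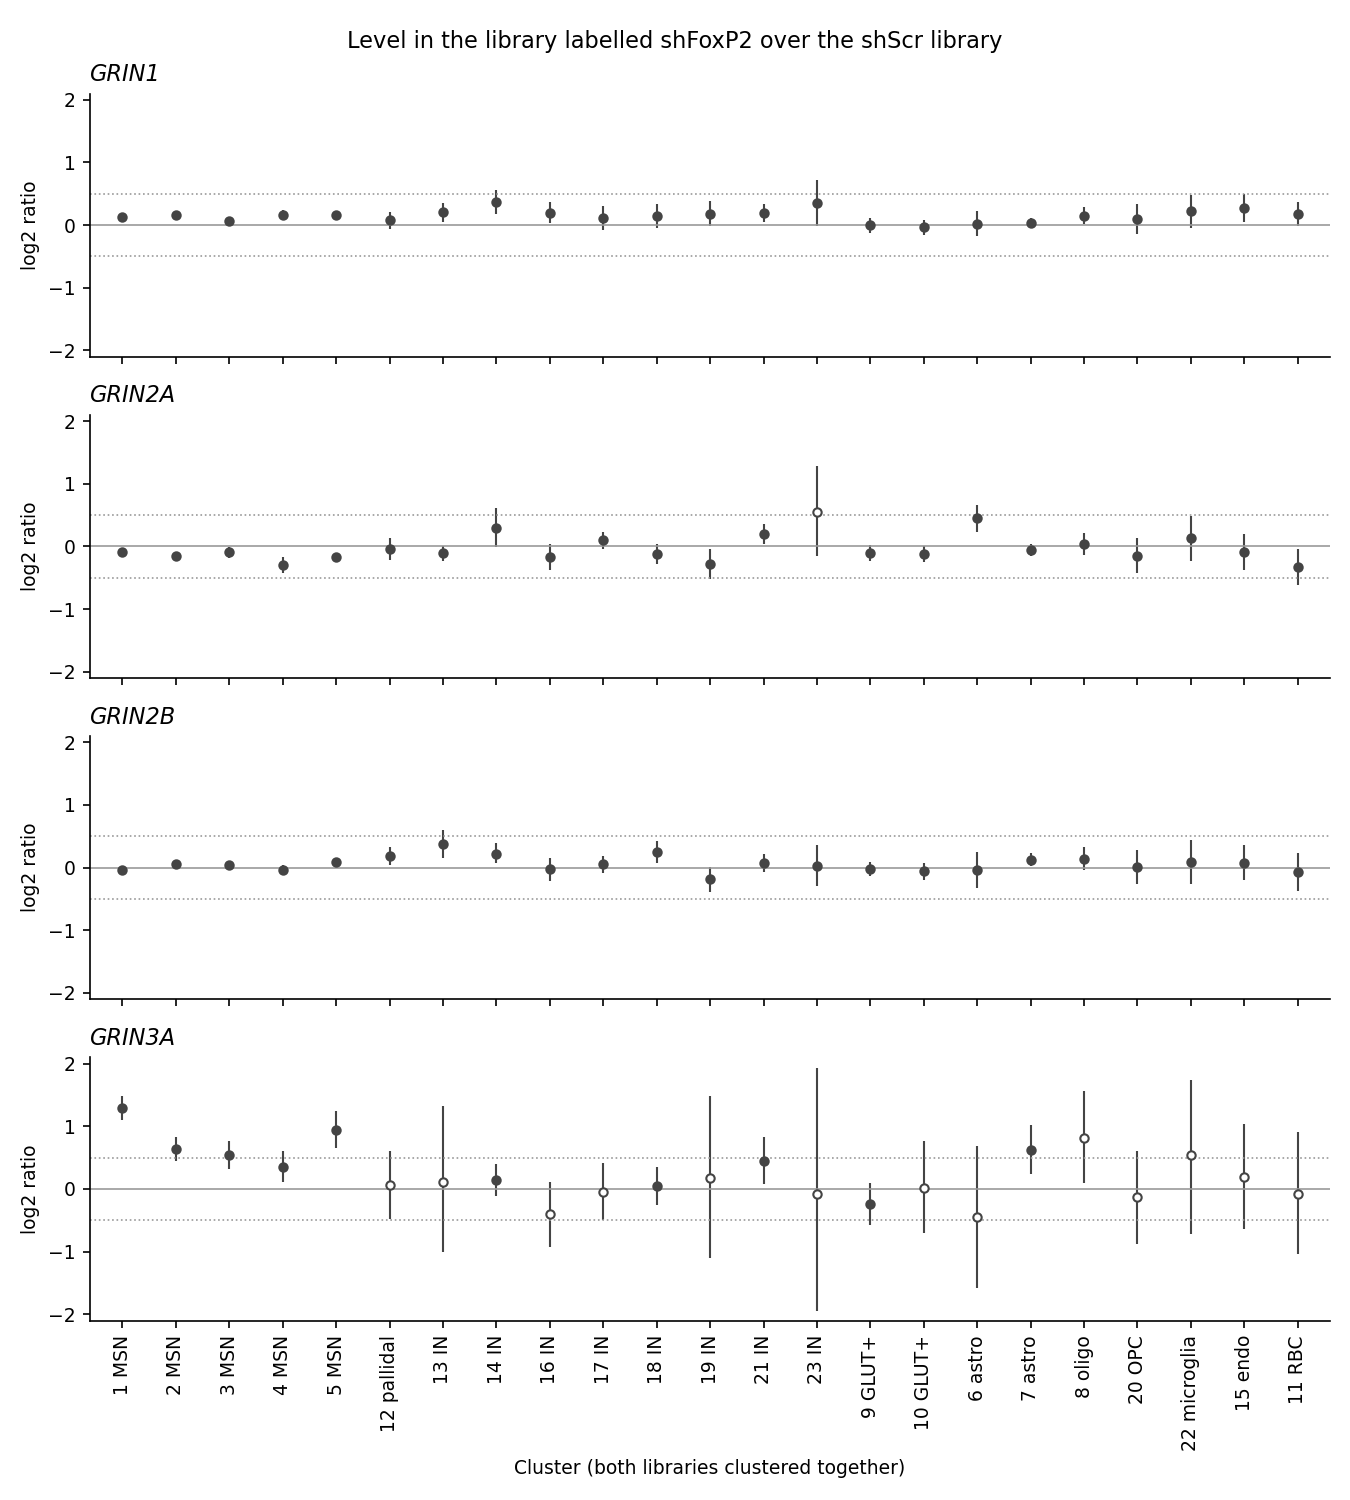
Log2 ratio of the level in the library labelled shFoxP2 over the shScr library for 4 subunit genes in each of the 23 clusters, with 95% binomial intervals. Filled points have at least 200 UMIs over both libraries, open points have fewer, and dotted lines mark 0.5 and -0.5; GRIN3A lies above 0 in all 5 MSN clusters (0.35 to 1.29) and near 0 in interneuron clusters 14 and 18.

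GRIN3A was higher in the library labelled shFoxP2 in all 5 MSN clusters, with 5 intervals above 0. Cluster 1 had 730 UMIs (0.862 per 10000) in the library labelled shFoxP2 and 307 (0.353) in the shScr library, a log2 ratio of 1.29 (1.10 to 1.49). In cluster 2 there were 592 and 399 UMIs in the same order, a ratio of 0.63 (0.45 to 0.82). Clusters 3 and 4 had ratios of 0.54 (0.32 to 0.76) and 0.35 (0.11 to 0.60), and cluster 5 had 0.94 (0.65 to 1.24). The ratio of cluster 1 exceeded that of cluster 2 by 0.66 (0.39 to 0.92), and that of the main clusters exceeded that of the minor ones by 0.50 (0.29 to 0.71). The order of these 5 ratios was the reverse of the order of the shScr levels, which are also the denominators of the ratios.

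In the interneuron clusters with the highest GRIN3A levels the intervals included 0. Cluster 14 had 380 UMIs (3.82 per 10000) in the library labelled shFoxP2 and 200 (3.47) in the shScr library, a log2 ratio of 0.14 (-0.11 to 0.40). Cluster 18 had 220 UMIs in the library labelled shFoxP2 and 148 in the shScr library, a ratio of 0.047 (-0.26 to 0.36). Cluster 21 had 160 UMIs in the library labelled shFoxP2 and 100 in the shScr library, a ratio of 0.45 (0.080 to 0.82). Over the 8 interneuron clusters together the ratio was 0.14 (-0.0033 to 0.29), and the ratio in MSNs exceeded it by 0.71 (0.54 to 0.89). Red blood cells had 21 UMIs (0.549 per 10000) in the library labelled shFoxP2 and 19 (0.578) in the shScr library, a ratio of -0.075 (-1.04 to 0.90). Levels outside neurons are given for comparison. Oligodendrocyte cluster 8 had 45 UMIs in the library labelled shFoxP2 and 27 in the shScr library, a ratio of 0.81 (0.092 to 1.56). Its counts are under the minimum of 200 UMIs. Over all 23 clusters GRIN3A was higher in the library labelled shFoxP2 in 16 and lower in 7, with 8 intervals above 0 and 0 below. Astrocyte cluster 7, whose summed MSN markers reached 60.7 and 63.1 UMIs per 10000, had 0.662 UMIs per 10000 in the library labelled shFoxP2 and 0.429 in the shScr library (0.62, 0.24 to 1.01), while astrocyte cluster 6 had 15 UMIs in each.

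Seen nucleus by nucleus, GRIN3A UMIs in MSNs were mostly single. Of 8393 MSNs of the library labelled shFoxP2, 1446 had 1 UMI, 382 had 2 and 112 had at least 3, and of 9657 MSNs of the shScr library 948 had 1, 130 had 2 and 31 had at least 3. The highest count in a nucleus was 6 in the library labelled shFoxP2 and 5 in the shScr library. The top 1% of MSNs held 11.1% of the GRIN3A UMIs in the library labelled shFoxP2 and 17.5% in the shScr library. The difference between libraries was spread over many nuclei.

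A GRIN3A UMI was present in 23.1% of MSNs of the library labelled shFoxP2 and in 11.5% of MSNs of the shScr library, at median depths of 2854 and 2259 UMIs. After each nucleus was thinned to 1000 UMIs, which left out 11 MSNs of the library labelled shFoxP2 and 36 of the shScr library, the shares were 8.36% (7.78 to 8.98) and 4.81% (4.39 to 5.26). Red blood cells of at least 1000 UMIs gave 8.82% (3.31 to 18.2) of 68 nuclei in the library labelled shFoxP2 and 6.10% (2.01 to 13.7) of 82 in the shScr library. The other 305 and 246 red blood cells were shallower and were left out. Cluster 1 had 7.13% in the library labelled shFoxP2 and 3.32% in the shScr library, and cluster 2 had 6.66% and 4.64%. All were at or below the red blood cells of their library, and at this depth these shares could not be told from background. The summed level of MSNs, 0.938 UMIs per 10000 (0.902 to 0.975) in the library labelled shFoxP2 and 0.518 (0.490 to 0.547) in the shScr library, lay above that of red blood cells only in the library labelled shFoxP2 (0.549, 0.340 to 0.839, there and 0.578, 0.348 to 0.903, in the shScr library). Astrocyte cluster 6 (1.36% in the library labelled shFoxP2 and 1.18% in the shScr library) and interneuron cluster 13 (0.658% and 1.65%) lay lower still, so the background was not alike in all cell types.

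In the minor clusters the thinned share was 11.9% (10.02 to 14.03) for cluster 3 and 12.4% (10.5 to 14.5) for cluster 4 in the library labelled shFoxP2, and 9.26% (7.41 to 11.4) and 8.83% (6.91 to 11.1) in the shScr library. Interneuron cluster 14 had 29.3% (23.7 to 35.4) in the library labelled shFoxP2 and 33.8% (26.3 to 41.9) in the shScr library, at median depths of 3956 and 3706. Cluster 18 had 26.7% and 20.8% in the same order. Clusters 14 and 18 thus lay above the intervals of red blood cells in both libraries, and clusters 3 and 4 within them. Thinned to 500 UMIs, which kept every nucleus, red blood cells gave 1.88% in the library labelled shFoxP2 and 2.44% in the shScr library. These rest on 7 and 8 nuclei. Clusters 3 and 4 then had 6.20% and 6.84% in the library labelled shFoxP2, and 4.51% and 5.91% in the shScr library. Clusters 1 and 2 had 4.07% and 3.32% in the library labelled shFoxP2, and 1.77% and 1.86% in the shScr library.

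**Figure D4:**
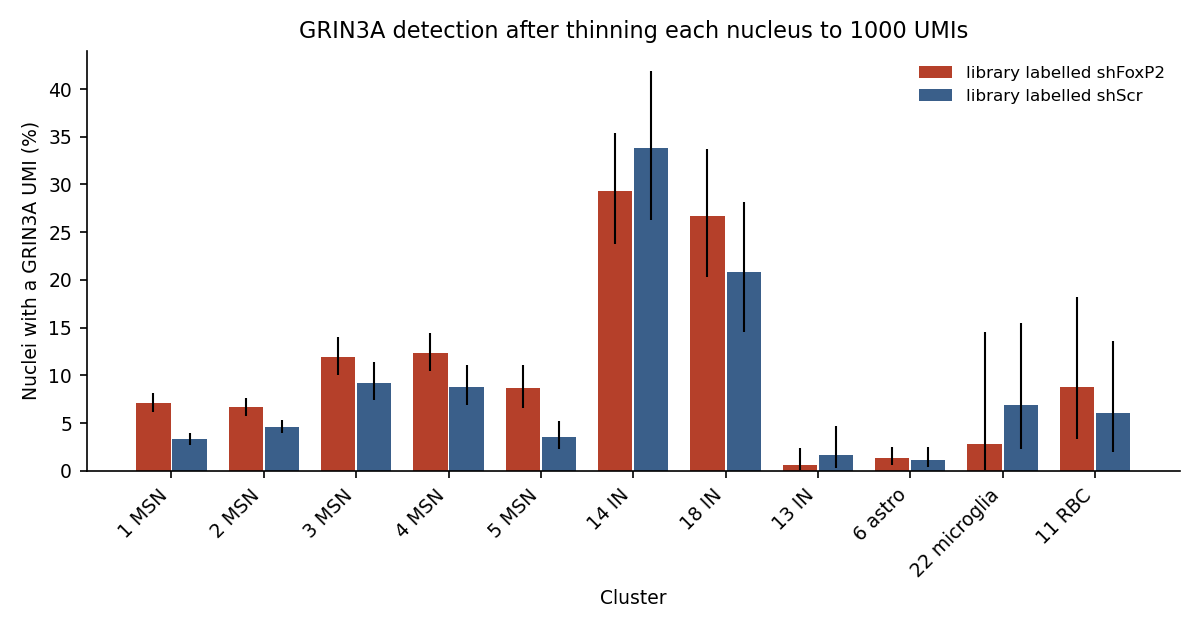
Percentage of nuclei with at least 1 GRIN3A UMI after thinning to 1000 UMIs, with 95% Clopper-Pearson intervals, for the 5 MSN clusters, 3 interneuron clusters, astrocyte cluster 6, microglia and red blood cells, the library labelled shFoxP2 (red) left of the shScr library (blue). Cluster 14 stands highest at 29.3% and 33.8%, and the wide intervals of red blood cells rest on 68 and 82 nuclei.

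Markers of other cell types were summed in MSNs beside this result. Interneuron markers, all 7 of which were detected, came to 9.91 UMIs per 10000 in the library labelled shFoxP2 and 11.8 in the shScr library, with ranges over MSN clusters of 7.40 to 12.1 and 8.80 to 13.8. Haemoglobin markers, 2 of 3 listed being matched, came to 1.62 in the library labelled shFoxP2 (1.13 to 2.81 over clusters) and 1.11 in the shScr library (0.561 to 2.58), and those of oligodendrocyte precursors to 0.176 and 0.314. The interneuron sum was thus lower in MSNs of the library labelled shFoxP2. Because it includes GAD2, which is also on the MSN list, it cannot show how much interneuron RNA these nuclei carried. The GRIN3A ratio after thinning every nucleus to 1000 UMIs was 0.82, and the part of the haemoglobin markers in it was not tested.

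The shares of MSNs with a UMI of the more abundant subunits were set beside those of red blood cells. After thinning, a GRIN1 UMI was present in 78.9% of MSNs of the library labelled shFoxP2 and 77.6% of MSNs of the shScr library, against 97.9% and 95.8% before thinning. The red blood cells of at least 1000 UMIs gave 77.9% and 75.6%, and astrocyte cluster 6 gave 31.6% and 28.9%. GRIN2B was found in 62.1% of thinned MSNs of the library labelled shFoxP2 and 60.4% of those of the shScr library (92.9% and 87.2% before thinning), against 52.9% and 43.9% of red blood cells. GRIN2A was found in 53.7% and 58.6% of thinned MSNs (84.2% and 83.5% before thinning), against 41.2% and 57.3% of red blood cells. The MSN share lay inside the interval of red blood cells for GRIN1 and GRIN2A in both libraries. The same held for GRIN2B in the library labelled shFoxP2, and at this depth these shares could not be told from background. For GRIN2B in the shScr library the MSN share lay above that interval (33.0 to 55.3). Minor cluster 4 had a GRIN2A UMI in 27.7% of thinned nuclei of the library labelled shFoxP2 and 28.5% of those of the shScr library, below red blood cells in both. Thinning to 500 UMIs kept every nucleus, also the shallow red blood cells left out above. GRIN2A was then found in 33.2% and 37.8% of MSNs (library labelled shFoxP2, then shScr) and in 17.7% and 22.3% of red blood cells. GRIN1 was found in 54.7% and 52.1% of MSNs and in 43.7% and 40.2% of red blood cells. Summed levels of both genes over all MSNs also lay above the red blood cell intervals in both libraries. The minor clusters did not. For GRIN2A red blood cells had 5.02 (4.33 to 5.78) in the library labelled shFoxP2 and 6.30 (5.47 to 7.22) in the shScr library. Cluster 3, at 5.50 and 5.89, lay inside these intervals, and cluster 4, at 3.81 and 4.68, lay below them. For GRIN1 neither minor cluster lay above the red blood cell interval in either library.

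Subunits were detected together in MSNs as often as separate detection gives. In main cluster 1, GRIN1 and GRIN2A were found together in 50.0% of thinned nuclei (48.1 to 51.8) of the library labelled shFoxP2, where the product of the single shares was 50.4%. GRIN2A and GRIN2B were found together in 36.8% (35.0 to 38.5) where the product was 36.5%. Over 6 pairs of subunits, clusters 1 to 4 and both libraries, the product lay inside the interval in 48 of 48 cases. The interval covers the joint share alone, and the product comes from the same nuclei and moves with it. A product inside the interval therefore says little. In cluster 4, GRIN2A and GRIN2B were found together in 19.3% where the product was 17.9% in the library labelled shFoxP2. In the shScr library these were 17.7% and 18.4%. Whether GRIN2A-bearing and GRIN2B-bearing nuclei form separate groups within a cluster was not tested.

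In GLUT+ neurons of clusters 9 and 10, which carry the vesicular glutamate transporter gene SLC17A6, the 2 clusters differed in subunits. Cluster 9 had 41.9% GRIN2A in the library labelled shFoxP2 and 43.4% in the shScr library, and cluster 10 had 49.4% and 50.5%. GRIN3A had 1.03 UMIs per 10000 in cluster 9 of the library labelled shFoxP2 and 1.22 in that of the shScr library, against 0.231 and 0.228 in cluster 10. Over both clusters together, GRIN3A was the 1 subunit gene of 4 past the fold between libraries (-0.57, -0.87 to -0.27), where 11.2% of 4417 genes passed it. Within the clusters the ratio was -0.24 (-0.58 to 0.093) and 0.019 (-0.71 to 0.76), and cluster 9 held 247 of 621 GLUT+ nuclei in the library labelled shFoxP2 against 477 of 810 in the shScr library.

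Pallidal-like cells of cluster 12 had 10.9 GRIN1 UMIs per 10000 in the library labelled shFoxP2 and 10.4 in the shScr library, and 10.9 and 9.57 of GRIN2B. Their GRIN2A share was 39.0% (36.2 to 41.8) in the library labelled shFoxP2 and 42.8% (40.2 to 45.3) in the shScr library, between the main and the minor MSNs. None of 3 subunit genes with enough UMIs passed the fold between libraries there, where 6.91% of 1361 genes did.

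Among interneuron clusters GRIN2C was the 1 subunit gene of 5 past the fold, with 94 UMIs in the library labelled shFoxP2 and 107 in the shScr library over the 8 clusters (-0.61, -1.03 to -0.20), where 10.1% of 6778 genes passed it. Cluster 17 contributed 2 UMIs in the library labelled shFoxP2 and 16 in the shScr library, a log2 ratio of -3.24 (-6.40 to -1.15). In cluster 14, the richest in GRIN2C, the ratio was -0.37 (-1.02 to 0.30).

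Genes that work with NMDA receptors were described from a list of 39, of which 33 were matched and 27 had at least 200 MSN UMIs over both libraries. These comprised scaffolds, kinases and a phosphatase, regulators of small GTPases, genes of the co-agonists glycine and D-serine, transport proteins and others at the receptor. Of the 27, 2 passed a log2 ratio of 0.5 upward and 2 downward, and 23 stayed within it, beside 18.2% of all genes. Their median was -0.040, against 0.0063 over all genes.

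Upward there were KALRN and RELN. KALRN, the exchange factor kalirin that shapes dendritic spines, had 3.18 UMIs per 10000 in MSNs of the library labelled shFoxP2 and 1.36 in those of the shScr library (1.23, 1.17 to 1.28). RELN, the secreted protein reelin that enhances NMDA receptor currents, had 2.92 in the library labelled shFoxP2 and 2.01 in the shScr library (0.54, 0.49 to 0.59). In interneurons KALRN had 8.80 and 6.68 and RELN had 1.84 and 2.08 in the same order, so that RELN lay the other way there.

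Downward, GRINA, a membrane protein named after an early link to the glutamate receptor, had 0.876 UMIs per 10000 in MSNs of the library labelled shFoxP2 and 1.40 in those of the shScr library (-0.68, -0.75 to -0.60). NETO2, an auxiliary subunit better known for kainate receptors, had 1.58 in the library labelled shFoxP2 and 2.52 in the shScr library (-0.67, -0.72 to -0.61). Both were also lower in interneurons of the library labelled shFoxP2, GRINA with 0.915 there and 1.45 in the shScr library, and NETO2 with 1.01 and 1.26. The other 23 partners lay between -0.34 for the ephrin receptor gene EPHB2 (-0.52 to -0.16) and 0.22 for the scaffold gene DLG1 (0.15 to 0.28). DLG2, the most abundant scaffold of the list, had a ratio of -0.055, CAMK2A, the alpha subunit of CaMKII, one of -0.091, and NETO1, which binds NMDA receptors in mice, one of -0.044.

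**Figure D5:**
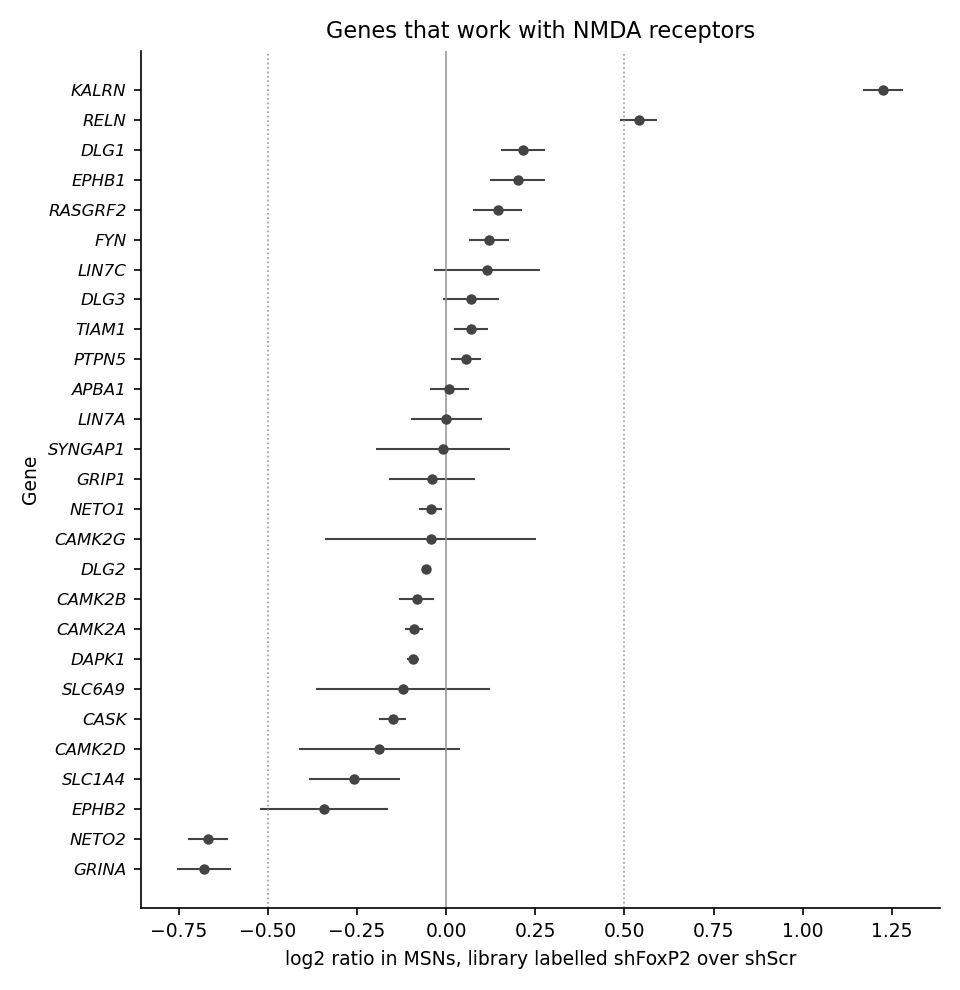
Log2 ratio in MSNs of the library labelled shFoxP2 over the shScr library for the 27 listed genes with at least 200 UMIs, with 95% binomial intervals and dotted lines at 0.5 and -0.5. KALRN (1.23) and RELN (0.54) lie above the upper line, and NETO2 (-0.67) and GRINA (-0.68) below the lower one.

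Genes with the most similar pattern over clusters were looked up in the shScr library, among 9025 named genes and over 22 clusters of at least 50 nuclei in each library. Likeness was Pearson's r of log2(UMIs per 10000 + 0.1), the clusters of a library share its depth and background RNA, and r is given as a description. For GRIN1 the nearest genes were CACNB4, a calcium channel beta subunit (r = 0.93 in the shScr library), ARID4A, a chromatin protein (0.91), and GALNT13, a glycosyltransferase (0.91). In the library labelled shFoxP2 these had r of 0.92, 0.89 and 0.71, and ranked 2, 6 and 260. GRIN2B was most like DLGAP2, a scaffold of the postsynaptic density, with 0.92 in each library, followed by CLSTN2 (0.88 in the library labelled shFoxP2 and 0.89 in the shScr library) and the ephrin receptor gene EPHA6 (0.79 and 0.84).

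GRIN2A had no gene as close. Its nearest were the pacemaker channel gene HCN4 (0.71 in the library labelled shFoxP2 and 0.73 in the shScr library), the sialyltransferase gene ST6GALNAC5 (0.66 and 0.72) and PEX5L, whose product binds HCN channels (0.56 and 0.70). GRIN3A was nearest to PRDM8 (0.61 in the library labelled shFoxP2 and 0.79 in the shScr library), the chemokine gene CXCL12 (0.69 and 0.76) and ZBTB7C (0.64 and 0.75). For GRIN2C, on 152 UMIs of the shScr library, they were TBC1D8B (0.82 and 0.87), U2SURP (0.69 and 0.86) and FRMD4B (0.80 and 0.83). Ranks in the library labelled shFoxP2, in the order named, were 1, 2 and 8 for GRIN2A and also for GRIN2B. They were 35, 10 and 22 for GRIN3A and 2, 46 and 3 for GRIN2C, so several genes were not among the nearest there.

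The patterns of the subunits were also set against each other. GRIN1 and GRIN2B had an r of 0.59 in the library labelled shFoxP2 and 0.60 in the shScr library, and GRIN2A and GRIN2B had 0.43 and 0.44. GRIN2B and GRIN3A had 0.75 in the library labelled shFoxP2 and 0.60 in the shScr library, whereas GRIN2A and GRIN3A had 0.082 and -0.039. The order of clusters held between libraries for the 4 more abundant subunits, with a Spearman's rho over 23 clusters of 0.98 for GRIN1, 0.95 for GRIN2A, 0.94 for GRIN2B and 0.93 for GRIN3A, and 0.53 for the sparse GRIN2C.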

How the data were processed

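The deposited tables hold UMI counts per nucleus and gene as whole numbers, not normalized, which the authors made with CellRanger 3.0.2 against the zebra finch genome bTaeGut1_v1.p, with intronic reads included, and from which they left out nuclei above 10000 UMIs or rich in mitochondrial reads. Clusters are theirs, from Seurat 3.0. The library codes of the joint table were matched to samples through the barcodes of a separate shScr table, and the remaining code was taken as shFoxP2, using also the numbers of nuclei that the study gives. The 27245 nuclei held 42662731 UMIs in the library labelled shFoxP2 and 39179294 in the shScr library, and none was left out here. No doublet caller was run. One alternative dropped the 8% deepest nuclei.

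Sums per cluster and library were made in Python 3.11.15 (pandas 2.3.3, numpy 2.4.6, scipy 1.17.1, matplotlib 3.10.9). All intervals are at 95% and cover counting error only: exact Poisson for levels, exact binomial for log2 ratios, Clopper-Pearson for shares, and a normal approximation for the difference of 2 ratios. Counts of genes past a log2 ratio of 0.5 used genes with 200 UMIs or more in the 2 sums. The direct-like MSN clusters were those low in DRD2. The code was tested on simulated data. Genes named are every subunit, the listed partners past the fold, with a few others of the list added after their values were seen, and the 3 genes nearest to each subunit. The members, gene lists and settings were chosen with earlier results of these data known. Other alternatives were thinning, equal weights for clusters, means over nuclei, centring on the median gene and the clusters of the shScr library alone. Gene positions and sequences are not used here.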

Additional observations from a re-analysis of the deposited data

How the results depend on the processing

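Each condition had 1 library, so no replicate could be left out. No paired analysis was possible because each group has a single library whose replicate number does not mark a shared animal. Thinning to 1000 UMIs gave a GRIN1 log2 ratio of 0.073 in MSNs in place of 0.11. Weighting the 5 MSN clusters equally gave 0.14 for GRIN1, -0.15 for GRIN2A and 0.66 for GRIN3A. Among MSNs outside cluster 1, a setting chosen after seeing the data, the GRIN3A ratio was 0.69, and leaving out another MSN cluster gave 0.85 to 0.92. At a log2 ratio of at least 1, 0 subunit genes and 1 partner gene passed. Over all alternatives the ratio in MSNs stayed between 0.073 and 0.14 for GRIN1, -0.21 and -0.15 for GRIN2A, 0.025 and 0.033 for GRIN2B, and 0.66 and 0.92 for GRIN3A. The GRIN2A share of the minor MSN clusters was 28.9% after thinning in the library labelled shFoxP2 and 30.9% in the shScr library, against 31.1% and 34.0%. The GRIN3A ratio of indirect-like over direct-like MSNs in the library labelled shFoxP2 was -0.037 after thinning, against 0.12. Over all alternatives it ran from -0.037 to 0.17, and the GRIN2A ratio of this contrast in the shScr library from -0.044 to 0.0076. The direction of both thus depended on the processing. GRIN2C had under 200 MSN UMIs and no ratio is read from it there.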
